A study of Mus musculus with 2 samples.

Results

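The cytosolic ribosomal protein genes encode the proteins that, with ribosomal RNA, make up the large and the small subunit of the ribosome outside mitochondria. They were taken as the mouse protein-coding genes of the assembly GRCm38.p6 whose symbol is Rpl, Rps or Rplp with a number and at most a short paralog suffix, pseudogenes and S6 kinases left out. This gave 83 genes of 21627 on the autosomes and X: 49 Rpl genes of the large subunit, 31 Rps genes of the small subunit and 3 Rplp genes of the ribosomal stalk. Their region ran from 2 kb before to 2 kb after each gene, and a cytosine of a CpG counted when at least 10 reads covered it on the same strand in both libraries. By this rule 81 of the 83 genes held 10093 of the 3030488 cytosines shared by both libraries. Rpl32l and Rps27 held 0.

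DNA methylation of peripheral blood cells had been measured in 2 libraries by reduced representation bisulfite sequencing (RRBS), which cuts DNA with the enzyme MspI at CCGG and reads methylated cytosines as C and unmethylated ones as T. The WT library came from wild-type blood. The I-PpoI library came from blood of a transgenic model that expresses I-PpoI in the proximal tubular epithelium of the kidney. I-PpoI is a homing endonuclease whose natural target lies in ribosomal RNA genes, and it breaks both strands of the DNA. The enzyme was thus directed to the kidney and not to the cells measured here. The sources used here do not give the driver of the transgene or the strain, sex, age and number of the animals. Each group was 1 library, so every test below compares 2 libraries and not 2 conditions, a difference in the mix of blood cells cannot be told apart from a change within cells, and intervals cover counting error only.

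Ribosomal protein genes are among the most highly expressed genes of nearly every cell, and most have a promoter rich in CpG. Methylation of cytosine at such promoters goes with silencing, while a CpG-rich promoter in use is usually free of it. A few members are paralogs made in few tissues: Rpl3l in heart and skeletal muscle, and Rpl10l and Rpl39l mainly in the testis, where the X-linked Rpl10 and Rpl39 are shut down during meiosis.

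Libraries were deep at these genes. The cytosines of the members had a median of 85 reads in WT and 77 in I-PpoI, against 69 and 59 over the shared cytosines of all protein-coding regions. The blood label was checked at gene starts with at least 3 cytosines. Of the leukocyte genes with a value, Coro1a had 5.97% in WT and 5.25% in I-PpoI, Vav1 4.74% and 3.02%, Laptm5 1.67% and 0%, and Itgb2 9.29% and 2.64%, whereas Rac2 stood at 54.7% and 44.5%. The kidney tubule genes Aqp2 (93.8% and 84.6%) and Slc12a1 (92.3% and 91.4%) and the liver gene Serpina1a (87.3% and 83.3%) were methylated, and Lrp2 was not (6.67% and 6.29%). Of the leukocyte starts 4 of 5 were thus low in both libraries, and 3 of the 4 starts of other tissues high. Over all protein-coding starts 83.3% were under 20% in WT, so the low leukocyte starts alone say little about the blood label.

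The promoters below show the contrast on which the results turn: Rps19, a small-subunit gene and the one most often mutated in Diamond-Blackfan anaemia, the X-linked Rpl39 and Rpl10, and the paralogs Rpl39l and Rpl10l. Each sequence is the RefSeq promoter of GRCm38.p6, 250 bases before to 50 after the gene start, 5′ to 3′ on the gene's strand, and capitals mark the CpGs measured in both libraries on at least 1 strand. The positions are chr7:24884342-24884641 on the plus strand for Rps19, chrX:37085173-37085472 on the minus strand for Rpl39, chr16:10169978-10170277 on the plus strand for Rpl39l, chrX:74270566-74270865 on the plus strand for Rpl10 and chr12:66284352-66284651 on the minus strand for Rpl10l.
Rps19: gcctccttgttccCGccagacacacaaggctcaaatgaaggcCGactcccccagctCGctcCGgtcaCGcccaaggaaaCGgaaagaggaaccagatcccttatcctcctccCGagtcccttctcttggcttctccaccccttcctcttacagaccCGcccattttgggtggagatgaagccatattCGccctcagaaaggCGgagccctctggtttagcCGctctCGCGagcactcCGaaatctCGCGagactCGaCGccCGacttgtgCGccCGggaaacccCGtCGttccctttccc
Rpl39: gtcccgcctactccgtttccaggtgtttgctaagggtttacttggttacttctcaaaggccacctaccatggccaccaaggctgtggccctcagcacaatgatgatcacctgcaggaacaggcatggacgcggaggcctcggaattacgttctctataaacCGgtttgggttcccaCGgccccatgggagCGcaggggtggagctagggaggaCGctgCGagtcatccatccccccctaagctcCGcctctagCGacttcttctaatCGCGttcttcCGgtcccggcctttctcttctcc
Rpl39l: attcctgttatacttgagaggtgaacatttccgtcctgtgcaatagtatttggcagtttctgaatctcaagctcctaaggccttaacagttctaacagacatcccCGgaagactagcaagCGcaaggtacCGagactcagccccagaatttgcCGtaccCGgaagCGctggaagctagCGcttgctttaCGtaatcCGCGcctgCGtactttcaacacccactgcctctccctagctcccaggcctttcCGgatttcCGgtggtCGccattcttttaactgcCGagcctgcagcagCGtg
Rpl10: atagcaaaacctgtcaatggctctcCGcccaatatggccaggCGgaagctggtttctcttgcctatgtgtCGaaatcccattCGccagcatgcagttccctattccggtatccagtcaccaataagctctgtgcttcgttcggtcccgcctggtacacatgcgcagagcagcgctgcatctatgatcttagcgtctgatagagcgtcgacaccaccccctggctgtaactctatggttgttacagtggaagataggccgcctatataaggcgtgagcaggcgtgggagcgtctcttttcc
Rpl10l: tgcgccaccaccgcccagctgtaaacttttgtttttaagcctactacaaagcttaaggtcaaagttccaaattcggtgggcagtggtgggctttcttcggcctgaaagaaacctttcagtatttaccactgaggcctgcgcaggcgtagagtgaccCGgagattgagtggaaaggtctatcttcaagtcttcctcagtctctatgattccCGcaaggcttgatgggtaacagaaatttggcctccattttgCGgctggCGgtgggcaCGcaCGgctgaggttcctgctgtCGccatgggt
All 23 CpGs of the Rps19 promoter were measured, 10 of 17 in Rpl39, 16 of 17 in Rpl39l, 4 of 17 in Rpl10 and 7 of 13 in Rpl10l.

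RefSeq promoters were found for 63 of the 83 members, and were richer in CpG than those of other genes. A member promoter held a median of 21 CpGs in its 300 bases, from 2 to 35, against 14 over all 17273 promoters. The MspI site CCGG was in 90.5% of member promoters and in 63.8% of all, counting both strands. CCGGAAG, the core bound by ETS factors, which holds a CCGG itself, was in 38.1% and 12.2%. The CGCG-centred palindrome bound by BANP was in 7.94% of member promoters, namely Rpl12, Rpl26, Rps6, Rps19 and Rps28, and in 0.718% of all. GGGCGG, bound by Sp1 factors, was in 58.7% and 48.0%, AAGATGGC, bound by YY1, in 7.94% and 3.27%, and TATAAA in 11.1% and 13.3%. CTTTT on the sense strand within the last 51 bases, a run like the terminal oligopyrimidine tract at which translation of ribosomal protein mRNAs is controlled, was in 17.5% and 4.46%. A match is a description of the sequence and not evidence of binding.

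Where the palindrome was measured, its cytosines were at or near 0. In Rps6, the small-subunit protein phosphorylated by S6 kinase, its 4 cytosines had 0 methylated of 527 WT reads and 0 of 600 I-PpoI reads, which allows up to 0.569% and 0.5%. The 4 in Rps19, 4 bases before the start, had 0 of 178 and 0 of 128 reads, which allows up to 1.69% and 2.34%. In Rpl26 the 2 cytosines averaged 3.56% in WT, and had 0 of 126 reads in I-PpoI (up to 2.38%). Reads here are summed over cytosines, and a read that covers several counts at each, so these upper limits can be too low. No shared cytosine lay in the palindromes of Rpl12 and Rps28.

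Outside MspI sites the promoters were nearly free of methylation in both libraries, and lower in I-PpoI. Over the promoters of the members other than Rpl3l, Rpl10l and Rpl39l, the 1401 cytosines outside a CCGG averaged 1.18% in WT and 0.534% in I-PpoI. Summed over reads this was 1670 of 127453 in WT, or 1.31% (95% Wilson interval 1.25 to 1.37), and 657 of 118754 in I-PpoI, or 0.553% (0.513 to 0.597). With the 3 paralogs included, 1436 cytosines averaged 3.44% and 2.79%. Of the 51 promoters with such cytosines, 43 had a lower mean in I-PpoI (84.3%) and 5 a higher one (9.80%), against 70.2% and 27.0% of 9253 protein-coding promoters. The same cytosines over all protein-coding promoters averaged 2.46% and 1.79%, with no gene left out, so a lower level in I-PpoI was shared with other genes. In a comparison of whole promoters without their CCGG cytosines, chosen after the data were seen, 52 member promoters were at 1.08% in WT in the median, against 0.477% in I-PpoI, with a median difference of -0.55 points beside -0.41 over 8864 promoters.

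CCGG cytosines of the same promoters stood apart. They numbered 225, with a mean of 33.1% in WT and 32.8% in I-PpoI. Of them 117 were at 20% or more in WT, against 2 of the 1401 others. All protein-coding promoters had 33.9% and 33.4%, so other genes showed as wide a gap between the sites. Rpl39 gives an example. Its CpG 28 bases after the start lies in an MspI site, and was at 2.74% of 73 reads in WT on the forward strand of the genome and 92.3% of 13 reads on the reverse strand. In I-PpoI these were 0% of 49 and 90% of 10 reads. CpGs with 1 strand above 80% and the other below 20% made up 233 of the 4648 CpGs read on both strands in member regions in WT (5.01%) and 237 in I-PpoI, and 223 were the same in both. Over all protein-coding regions the share was 4.96% in WT. The high strand had a median of 27 reads and the low strand 93. In RRBS the ends left by MspI are filled in when the library is made, and a cytosine put in there does not report the genome's own state. Whether such positions remain in the deposited values was not tested. The gene levels that follow include these cytosines. With them the promoters averaged 5.59% in WT and 4.99% in I-PpoI.

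**Figure D1:**
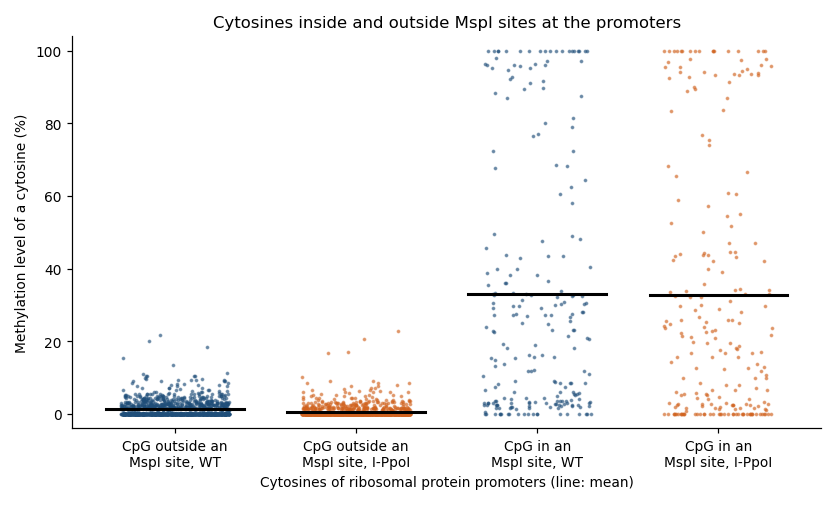
Methylation level in percent of each measured cytosine in the promoters of ribosomal protein genes other than Rpl3l, Rpl10l and Rpl39l, split by library and by whether its CpG lies in an MspI site (CCGG); each point is 1 cytosine and the line the mean. Outside MspI sites the 1401 points lie near 0, with a WT mean of 1.18% and an I-PpoI mean of 0.534%. The 225 points in MspI sites spread from 0 to 100% in both libraries, with means of 33.1% and 32.8%.

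At gene starts, taken as 1000 bp either side of the start, nearly all members were low and the paralogs of narrow expression high. For the 20 members without a RefSeq promoter, the gene end with more cytosines was used. Over the 80 starts with at least 3 cytosines the median level was 6.26% in WT and 5.73% in I-PpoI, against 7.77% and 7.04% over 15108 protein-coding starts. In WT 75 of the 80 were under 20% (93.8%), against 83.3% of all protein-coding starts. The 5 other member starts were those of Rpl10l, Rpl39l, Rpl3l, Rpl3 and Rps16.

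The large-subunit gene Rpl10l was methylated at every cytosine: the mean of its 22 cytosines was 97.0% in WT (95% interval 95.6 to 97.5) and 96.6% in I-PpoI (95.02 to 97.1). Its X-linked parent Rpl10 stood at the other extreme over 21 cytosines. It was at 0.340% in WT (0.0606 to 5.12) and 0% in I-PpoI (0 to 4.85). The cytosines of Rpl10 nearest the start lay at -168 and 567 bp, and those of Rpl10l from -94 to 72 bp. Both genes were thus not read at the same positions. Summed over cytosines, 0 of 303 I-PpoI reads allow up to 0.990%, a floor that counts a read at each cytosine it covers. Rpl10l is an intronless copy of Rpl10, and the sources used here do not say how reads that match both genes were placed. Rpl39l was methylated too, with 87.9% in WT (86.2 to 88.8) and 85.1% in I-PpoI (82.9 to 86.3) over 48 cytosines. Rpl39 was at 19.2% (17.6 to 20.7) and 17.1% (15.5 to 18.5) over 28 cytosines. In its printed promoter the 16 cytosines outside MspI sites had 1.99% in WT and 0% in I-PpoI. There 0 of 833 reads, summed over cytosines in the same way, allow up to 0.360%. The 23 such cytosines of Rpl39l had 92.6% and 91.1%. The 4 cytosines of Rpl39 in MspI sites averaged 49.9% and 50.2%. Rpl39 and its paralog thus lay far apart at the same kind of site, and both libraries showed it.

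Rpl3l had 82.2% in WT (80.3 to 83.4) and 78.0% in I-PpoI (75.9 to 79.4) over 42 cytosines of its start. The start of Rpl3, a large-subunit protein near the peptidyl transferase centre, is not listed: the end at the lower coordinate, with 12 cytosines, was at 93.6% and 86.1%, and the other end, with 8, at 27.0% and 25.4%. Which of these is the start was not used here, so the high value of Rpl3 may belong to the far end of the gene. Rps16, a small-subunit gene, had 8 cytosines at 25.3% (21.5 to 28.8) and 22.2% (17.8 to 26.1). The other paralogs with a suffix were low: Rpl7l1 was at 5.40% and 4.62%, Rpl22l1, the paralog of Rpl22, at 3.32% and 2.50%, and Rps27l, a p53-responsive paralog of Rps27, at 3.78% and 3.78%.

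**Figure D2:**
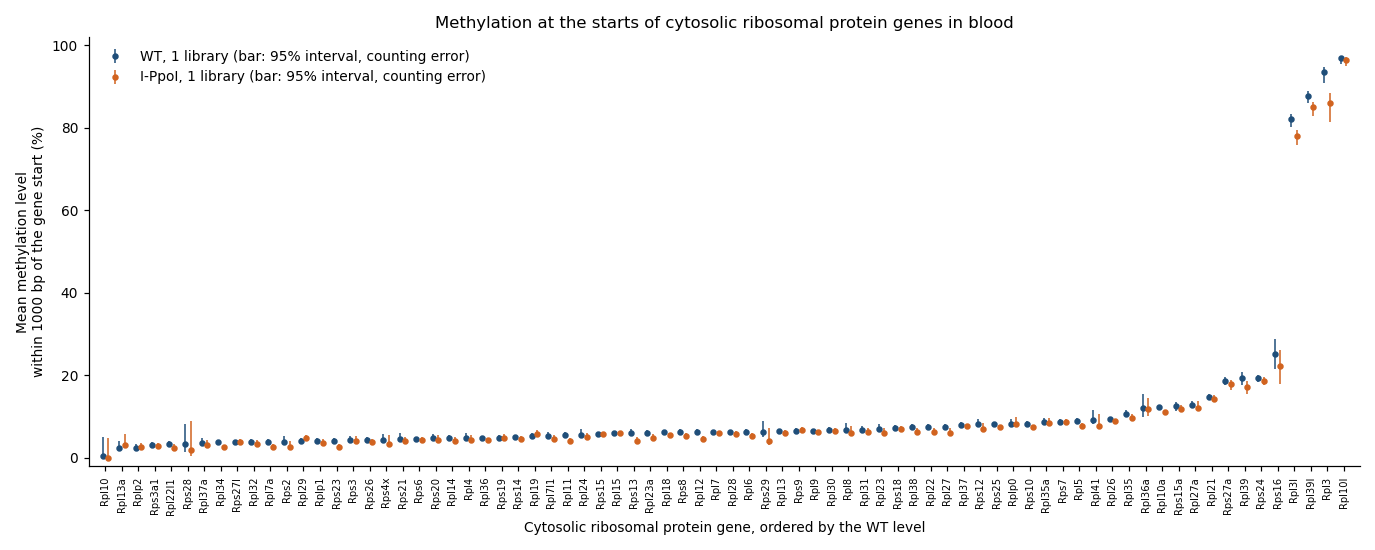
Mean methylation level in percent at the starts of 76 ribosomal protein genes, ordered by the WT level, with WT and I-PpoI side by side and 95% intervals for counting error. The values of 71 genes lie under 20% in WT, and Rpl3l, Rpl39l, Rpl3 and Rpl10l lie between 82.2% and 97.0%.

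**Figure D3:**
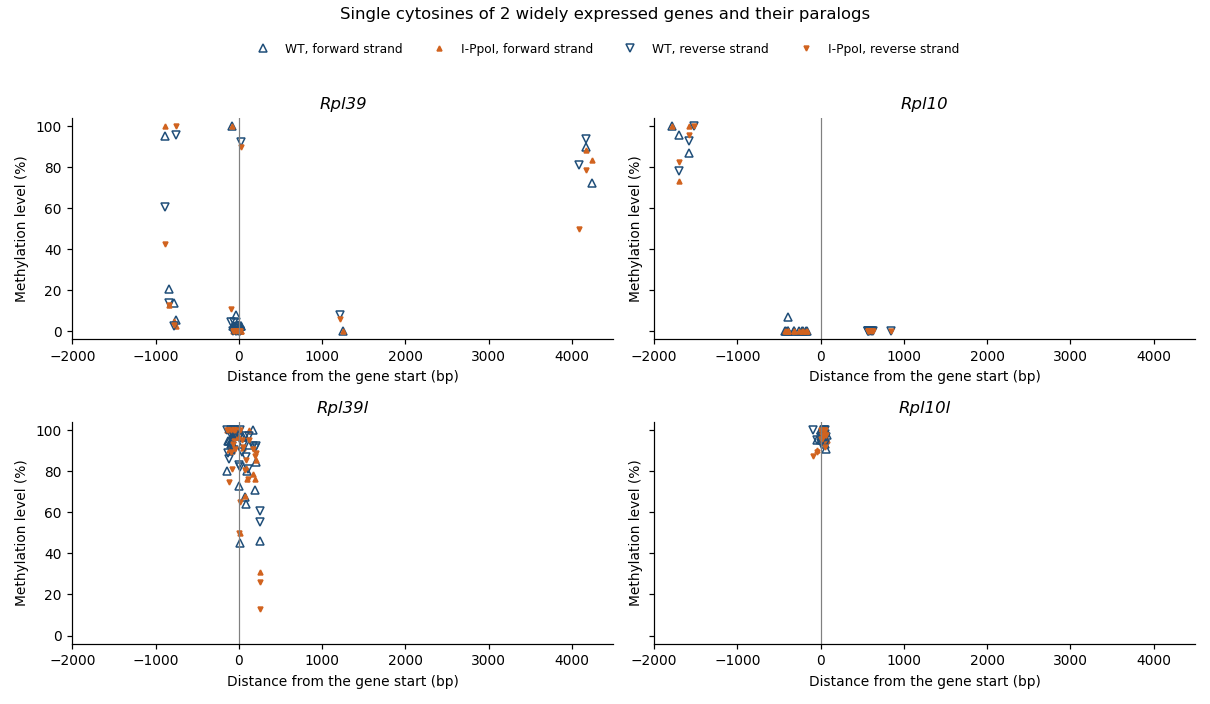
Methylation level in percent of single cytosines by distance from the gene start in bp for Rpl39 and Rpl10 (top) and Rpl39l and Rpl10l (bottom), with triangles pointing up for the forward and down for the reverse strand of the genome, open for WT and filled for I-PpoI. Near the start most cytosines of Rpl39 and Rpl10 are near 0 while those of Rpl39l and Rpl10l are mostly above 80%, and 3 cytosines of Rpl39l from 252 to 256 bp after the start are lower, more so in I-PpoI.

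The other X-linked members were low as well. Rps4x had 4.40% in WT and 3.33% in I-PpoI over 50 cytosines, and Rpl36a 12.1% and 11.8% over 11. Protein-coding starts on X had medians of 7.597% and 6.62%, close to the autosomal 7.78% and 7.05%. In WT the 4 X-linked members thus ran from 0.340% for Rpl10 to 19.2% for Rpl39.

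The lowest starts after Rpl10 were those of Rpl13a, Rplp2 and Rps3a1. Rpl13a, a large-subunit protein that also silences translation of some interferon-induced mRNAs, had 2.39% in WT and 3.17% in I-PpoI. Rps3a1 was at 3.22% and 2.80%. The stalk, where the translation GTPases dock, is built from Rplp0, at 8.24% and 8.18%, Rplp1, at 4.16% and 3.70%, and Rplp2, at 2.50% and 2.61%. Rps27a, which is made as a fusion with ubiquitin, was at 18.7% and 17.9% over 14 cytosines. None of the 3 stalk genes differed by more than 0.457 points.

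Of the members known from Diamond-Blackfan anaemia or from the 5q deletion of human disease, 10 were taken as a list that is not complete. All 10 had a start under 20% in both libraries, where 83.3% of all protein-coding starts were under 20% in WT. The median of the 10 was 8.44% in WT and 7.61% in I-PpoI. Rps24 was the highest, at 19.3% and 18.7%. Rpl5 and Rpl11, which bind Mdm2 and so link ribosome assembly to p53, were at 8.88% and 7.80% and at 5.59% and 4.03%. Rps19 was at 4.92% and 4.90%, Rps26 at 4.40% and 3.88%, Rps10 at 8.30% and 7.42%, Rps7 at 8.79% and 8.77%, Rps14 at 5.03% and 4.63% and Rpl35a at 8.59% and 8.50%. The I-PpoI value was the lower in all 10, by -0.54 points in the median, against -0.62 over all protein-coding starts, of which 79.9% were lower.

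Member levels were higher more than 500 bp before the start and more than 1000 bp after it. With the 3 paralogs left out and RefSeq starts only, the mean over genes was 77.1% in WT and 79.1% in I-PpoI from 2000 to 1000 bp before the start (13 genes), 8.75% and 8.08% in the 500 bp before it (51 genes), 6.52% and 5.83% in the 500 bp after it (56 genes) and 5.90% and 5.08% from 500 to 1000 bp after it (35 genes). From 1000 to 2000 bp after the start it was 37.5% and 33.7% (17 genes), and from 1000 to 500 bp before it 37.2% and 35.2% (22 genes). All protein-coding genes had 53.1% and 50.3% from 2000 to 1000 bp before the start, and 27.8% and 26.1% from 1000 to 500 bp before it. From 500 to 1000 bp after the start they had 20.5% and 19.1%. The outermost bins rest on few members, and no test was made between members and other genes.

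**Figure D4:**
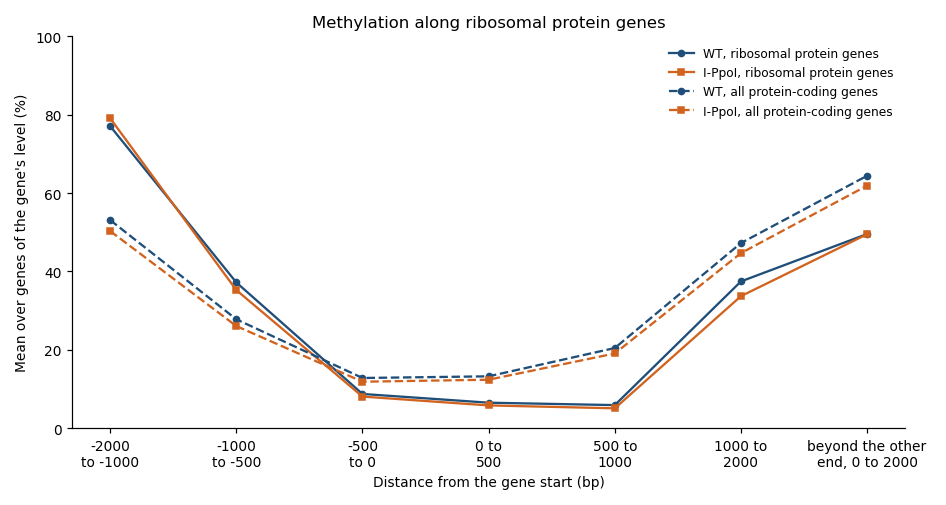
Mean over genes of the gene's methylation level in percent, by distance from the gene start in bp, for ribosomal protein genes with a RefSeq start other than Rpl3l, Rpl10l and Rpl39l (solid) and for all protein-coding genes (dashed), WT in blue and I-PpoI in orange. The ribosomal protein genes are lowest, at 5.90% in WT and 5.08% in I-PpoI from 500 to 1000 bp after the start, and the libraries lie close together.

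Over the whole region of gene and flanks, 0 of 81 members differed between the libraries by the rule used for a call, an adjusted p under 0.01 in a Cochran-Mantel-Haenszel test and a difference of at least 10 points in the mean level. Of all 17858 protein-coding regions 1.38% were called (1.27% lower and 0.118% higher in I-PpoI). At starts 0 of 80 were called, against 1.42% of 15108 (1.26% lower and 0.159% higher). Most members were too low in WT to fall by 10 points, so these shares over all genes are not a like background. Of 12582 protein-coding starts under 20% in WT, 4 were called lower and 6 higher. Of the regions of the same genes 10 were called lower and 2 higher. The median region had 9.12% in WT and 8.93% in I-PpoI (25.4% and 24.0% over all genes). The median difference was -0.68 points against -0.99 over all genes. Without the minimum of 10 points, 44 regions passed at an adjusted p under 0.01, all lower in I-PpoI, against 51.9% of all regions (50.6% lower and 1.33% higher). At starts 34 passed as lower and 1, Rpl13a, as higher, against 39.6% of all starts (38.1% lower and 1.5% higher). At an unadjusted p under 0.05 there were 51 regions (63.0%, against 65.3% of all) and 48 starts (60%, against 56.1% of all).

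The difference was below 0 in 75 of 81 member regions (92.6%), against 85.1% of all protein-coding regions. At starts it was below 0 in 72 of 80 (90%), against 79.9% of all, with 43 of 47 large-subunit and 27 of 30 small-subunit starts among them. The interval of the difference lay wholly below 0 in 32 regions (39.5%) and wholly above 0 in 1 (1.23%), against 46.5% and 1.38% of all regions.

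The largest negative differences included those of Rps29, Rpl3 and Rpl3l, and none reached 10 points. Rps29 (chr12:69157722-69159186), a small-subunit gene also known from Diamond-Blackfan anaemia, went from 23.2% (21.4 to 25.3) to 17.8% (16.0 to 20.6), a difference of -5.39 points (-8.19 to -2.09) with an adjusted p of 0.000137 over 42 cytosines. Its end at the lower coordinate went from 34.5% to 26.4%, while the richer end went from 6.30% to 4.20%. With at least 20 reads per cytosine the difference of Rps29 was -1, and with at least 30 it was 0. Rpl3 (chr15:80077781-80083406) went from 69.5% to 64.3%, by -5.23 points (-8.12 to -2.84), and by -12.3 points when reads were summed over cytosines. Rpl3l went from 48.3% to 45.2%, by -3.15 points (-4.64 to -1.65), with 29 cytosines above 80% in WT.

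Among members with a positive difference, Rplp2 differed by 0.27 points, Rps9, a small-subunit gene, by 0.12 and Rpl15, a large-subunit gene, by 0.09, and the intervals of all 3 held 0.

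The number of cytosines set the precision. Rpl7, Rps18 and Rpl19 had the most, with 390, 275 and 270, and went from 5.68% to 5.19%, from 10.2% to 9.70% and from 7.55% to 7.23%, with intervals of the difference of -0.846 to -0.0978, -1.05 to 0.0792 and -0.903 to 0.426 points. Rps28 had 4 cytosines, at 3.34% and 1.85%, and its interval of -6.64 to 5.73 points could not show a difference of the size seen in other members. For Rps16, with 8, the interval was -8.67 to 2.36 points, and for Rpl36a, with 17, -4.66 to 1.70.

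**Figure D5:**
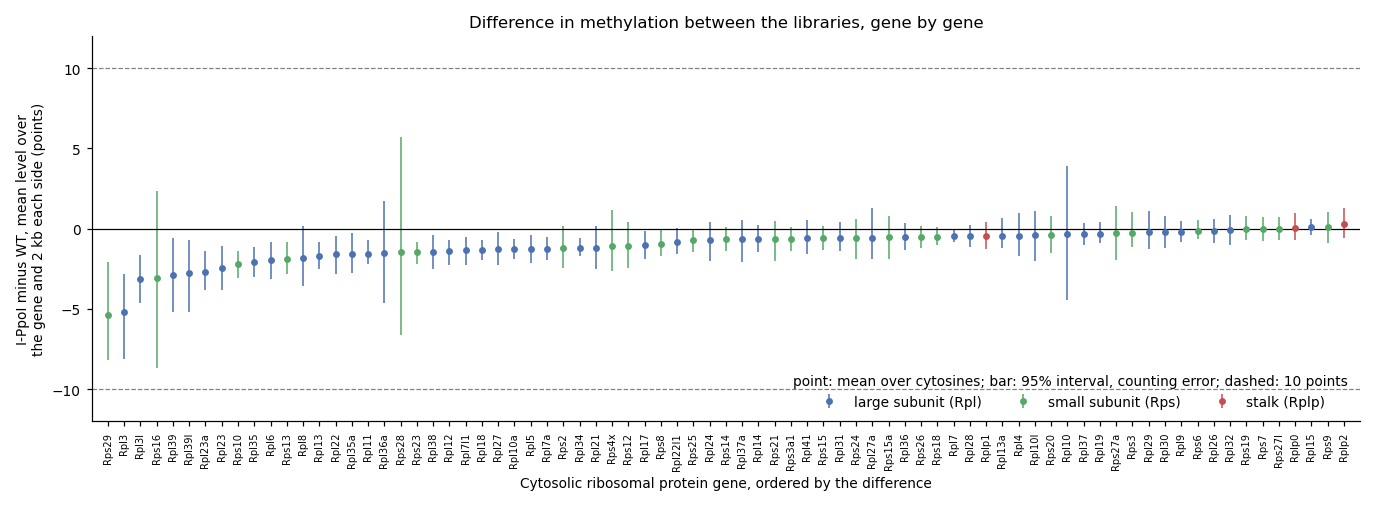
Difference in mean methylation level between the libraries, I-PpoI minus WT in percentage points, over each of 77 ribosomal protein genes with 2 kb either side, ordered by size and coloured by subunit, with 95% intervals for counting error and dashed lines at 10 points. The lowest value is -5.39 for Rps29, none reaches 10 points, and 72 lie below 0.

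Of 235 windows of 1000 bp that overlap a member region at least in part, 1 was called at 25 points, lower in I-PpoI, against 1% of 165945 windows called (0.921% lower and 0.0801% higher). It holds no cytosine of a member region: it overlaps only the edge of the region, and 0 of its 5 cytosines lie inside it, the nearest 683 bp past its end. Its position is chr17:28333001-28334000, beyond the far end of Rpl10a (chr17:28328471-28331033), a large-subunit gene, and inside the neighbouring gene Tead3, a transcription factor of the Hippo pathway. The mean was 78.5% in WT and dropped to 22.2% over 5 cytosines, all on the forward strand, with 13 to 20 reads each (adjusted p 8.51e-12 by the Cochran-Mantel-Haenszel test). The test takes the cytosines as independent, but the same reads may cover several of them, so this p can be far too small. Along the window the 5 went from 84.2% to 0%, 88.9% to 14.3%, 89.5% to 14.3%, 30.0% to 28.6% and 100% to 53.8%. The 0% rests on 14 reads, which allow up to 21.4%. Of the 5 cytosines 4 were lower by more than 40 points and 1 was not, and at a minimum of 20 reads the window was not tested. It was not called in a test scaled by the spread between its cytosines. With windows of 500 bp or a grid shifted by 500 bp, the window that holds the 5 cytosines no longer overlaps the member region. It was thus not counted there, and these alternatives do not show whether it would be called. The start of Rpl10a had 12.3% in WT and 11.03% in I-PpoI over 167 cytosines.

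At single cytosines 13 of 10093 were called by Fisher's exact test at 25 points (0.129%), against 0.496% of all 3030488 (0.437% lower and 0.0594% higher). A cytosine under 25% in WT cannot fall by 25 points. Of the member cytosines 86.2% had a mean of both libraries under 20%, against 66.8% over all protein-coding regions. The shares of calls are thus not a like comparison. Of the 13 calls 11 were lower in I-PpoI and 2 higher. The largest negative differences were in or near Rpl23, Rps10 and Rps15. In Rpl23, a large-subunit gene that also binds Mdm2, a reverse-strand cytosine at chr11:97781990, inside the gene, went from 93.3% (70.2 to 98.8) of 15 reads to 23.5% (14.005 to 36.8) of 51. Its partner on the other strand was at 4.76% and 17.3%, so both strands did not move together, and summed over strands the difference was -7.68 points and not called. The second, at chr11:97775684 after Rpl23 and inside 1700001P01Rik, went from 69.4% of 36 reads to 0% of 12, which allows up to 25%.

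Inside Rps10, chr17:27633715 went from 63.6% (54.1 to 72.1) to 18.8% (11.7 to 28.7), with its partner at 83.3% and 100%. Inside Rps15, a small-subunit gene, chr10:80293683 went from 62.8% (47.9 to 75.6) to 18.9% (10.6 to 31.4), with its partner at 23.5% and 21.2%, and was not called when strands were summed.

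Rpl39l held 2 of the called cytosines, both on the reverse strand: chr16:10170228 at the start, from 83.3% to 50%, and chr16:10170484, 256 bp after it, from 55.3% to 12.8%. Over the gene its forward-strand cytosines alone differed by 1.91 points and its reverse-strand cytosines alone by -7.10, so the difference of -2.79 for both strands rests on 1 strand.

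By level class, 86.2% of member cytosines had a mean of both libraries under 20%, against 66.8% over all protein-coding regions. Their means were 1.94% in WT and 1.20% in I-PpoI. Between 20% and 80% lay 7.53%, at 43.7% and 40.9%, a difference of -2.80 points against -5.41 over all genes, and above 80% lay 6.27%, at 94.6% and 94.1%. Of the member cytosines 40.9% had 0% in both libraries, against 28.4% over all genes.

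The other genes of the pathway were as low at their starts. Of them 0 were called, against 1.42% of all protein-coding starts. Most were too low in WT to fall by 10 points. Of 12582 protein-coding starts under 20% in WT, 4 were called lower and 6 higher. The 76 mitochondrial ribosomal protein starts tested had a median of 6.10% in WT and 5.32% in I-PpoI, with a median difference of -0.50 points. The 69 translation factor starts had 6.56% and 5.98% (-0.53), and the 57 of ribosome biogenesis 6.73% and 6.21% (-0.43). Ribosomal protein genes that the symbol rule leaves out were low too: Rpsa, a small-subunit protein also known as the laminin receptor, at 10.2% and 8.39%, Fau, which encodes the S30 protein fused to a ubiquitin-like protein, at 5.57% and 5.31%, and Rpl36al, a paralog of Rpl36a, at 4.79% and 4.003%.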

How the data were processed

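Blood DNA was measured by RRBS, which the labels' protocols say used the Zymo-Seq RRBS kit. The submitters' processing notes name methylKit without a version. Aligner, genome build, trimming and duplicate removal: not given in the sources used here. Each deposited table, per the file headers, gives for every CpG cytosine its strand, a coverage column, which is the count of reads over it, and the percent of reads showing C and showing T. No cytosine with under 10 reads was listed. Percent times coverage was whole, within 1e-06, at 100% of cytosines, so methylated read counts were recovered. WT lists 3569384 cytosines and I-PpoI 3141563 cytosines.

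The build was checked by letters: of 372112 listed cytosines inside RefSeq promoters of GRCm38.p6, 371895 (99.9%) lay at a CpG, and 1773 of 1773 in member promoters. Symbols and gene ends came from RefSeq tables of that assembly. Exon and intron positions were not used here.

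From these values the level of a region was computed as the mean over its cytosines, each weighted equally, with at least 3 cytosines. Regions, starts and windows were tested with a two-sided Cochran-Mantel-Haenszel test stratified by cytosine and single cytosines with Fisher's exact test, and p-values were Benjamini-Hochberg adjusted over all features of the kind. A call needed an adjusted p under 0.01 and 10 points for regions and starts or 25 for windows and cytosines. Intervals are at 95% and combine Wilson intervals of the cytosines; a count of 0 allows a share of 3 counts. PCR reads without molecular identifiers are not independent molecules, so intervals and floors cover counting error only. A read that covers several cytosines counts at each of them, so the cytosines of a region are not independent either. Intervals over several cytosines can thus be too narrow, floors too low, and p-values of regions, starts and windows too small. Of the member cytosines 36.9% also lay in the region of another protein-coding gene, and 110 in the regions of 2 members.

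On simulated data with these depths, 195 of 200 regions lowered by 20 points, 189 of 200 windows lowered by 40 and 84 of 200 cytosines lowered by 50 were recovered. Falls were set only where the level was above 50%. Of the 81 member regions tested 67 were under 20% in WT, where a fall of 20 points cannot occur. The simulation thus does not show how often a change would be found at most members. Python 3.11.15, pandas 2.3.3, numpy 2.4.6, scipy 1.17.1 and numba 0.67.0 were used. The submitters' own steps with MACS and MEME were not repeated; a fold rule like theirs was tried.

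Named genes were the called members, the paralogs with a suffix, the X-linked, stalk, Rps27a and disease genes, the 4 highest and 4 lowest starts, the 4 largest positive and negative differences, the 3 members with the most and the fewest cytosines, and the 6 largest called cytosines. Rps4l, listed as a pseudogene, was not a member. Some items that the rule would name are not reported here. Rps29's ends, the Rpl39l cytosines and the motif promoters were added after their values were seen. The members and lists were chosen with earlier results of these data known.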

Additional observations from a re-analysis of the deposited data

How the results depend on the processing

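The median differences kept their sign in all alternatives run, from -0.67 to -1.01 points for regions and from -0.55 to -0.64 for starts. They moved by less than the typical counting error of a single gene, 0.937 points for regions and 0.953 for starts. That limit is wider than the main medians themselves, so it could not have shown a shift to 0. Counts of called regions (0) rose to 2 with reads pooled over cytosines (Rpl3 and Rpl22) and to 2 with a minimum of 5 points (Rps29 and Rpl3). Called starts (0) rose to 1 with a minimum of 5 points (Rpl3) and to 1 within 500 bp of the start (Rpl3l, -10.6 points). The single called window fell to 0 at coverage minimums of 20 and of 30 reads, with reverse-strand cytosines, in a test scaled by the spread between cytosines, with at least 10 cytosines, with windows of 500 bp and on a shifted grid. All its cytosines lie on the forward strand, so none was left with reverse-strand cytosines. With windows of 500 bp and on the shifted grid, they fall in a window that does not overlap a member region and was not counted. The count of called windows was 2 with pooled reads, 4 under the fold rule and 8 at a minimum of 10 points. Called cytosines (13) numbered 7 on the forward strand, 6 on the reverse strand, 7 with thinned reads, 8 with strands summed, 23 under the fold rule, 25 at a minimum of 10 points and 28 at an adjusted p under 0.05. The cause of the other changes was not tested, beyond the fewer cytosines or the lower threshold that an alternative sets. Of the values of named genes 760 stayed within counting error or kept a cytosine call, 52 moved, 6 cytosine calls were lost, and no called cytosine reversed. No member region or start was called, so a reversal could be counted only for called cytosines. A change of sign in a region or start is among the values that stayed or moved. No paired analysis was possible because each group has 1 library. Depth limits genes with few cytosines, such as Rps28, and single cytosines near 10 reads.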

Other observations

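Cytosines listed in only 1 library were left out of every comparison above. In the member regions 10790 cytosines were listed in WT and 10266 in I-PpoI. Of those in WT 93.5% were also listed in I-PpoI, against 87.9% over all protein-coding regions. The 697 listed in WT only averaged 27.9% with a median of 13 reads, and the 173 listed in I-PpoI only averaged 15.4% with a median of 12 reads. Over all protein-coding regions the cytosines of WT only averaged 70.6% and those of I-PpoI only 39.2%. Cytosines of the member regions that 1 library lacks were thus more methylated than the shared ones, which averaged 10.9% in WT, and lay close to the minimum of 10 reads.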
